A study of Mus musculus with 60 samples.

Results

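RNA of prefrontal cortex was compared between mice that lack Adgrl3 (KO; Adgrl3 -/-) and wild-type mice (WT; Adgrl3 +/+). These are 20 of the 60 libraries of the study, 10 KO and 10 WT, chosen by the genotype and the region that the labels give. The remaining 40 libraries are of hippocampus and striatum. Genes of chromosome 5, which carries Adgrl3, were described apart from all others, and 4 genes of the olfactory bulb (Eomes, Doc2g, Cdhr1 and Tbx21) were followed as markers of that neighbouring structure.

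The protocols in the labels state that 12 mice per genotype were used at P65 to P76 (postnatal days 65 to 76) and that regions were microdissected from frozen brains. The protocol text calls the gene Lphn3, the older name of Adgrl3. Neither the altered part of the gene nor sex, strain, litter or batch is given in the sources used here. The labels call the 10 libraries of a group replicates but do not tie them to animals, so p-values measure the spread between these libraries. The RNA is from bulk tissue, in which fewer cells of a type and less RNA per cell cannot be told apart.

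The product of Adgrl3, latrophilin-3, is a cell-surface receptor of the adhesion class of G protein-coupled receptors. Latrophilins sit at synapses, where their extracellular part binds teneurins and FLRT proteins on the facing cell, and FLRT proteins in turn bind netrin receptors of the UNC5 family. The prefrontal cortex receives dopamine and noradrenaline from the brainstem and has been linked to attention and impulse control. In mice the olfactory bulb lies directly in front of it and holds its own projection neurons (mitral and tufted cells) and interneurons, some of which make dopamine.

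The 20 libraries held 43523363 to 51387833 counted reads in KO and 39927732 to 50566119 in WT. Mitochondrial transcripts took 5.97% to 8.35% of the counts in KO and 6.02% to 7.61% in WT. Levels are given in CPM (counts relative to the TMM-scaled library size). Marker levels in this paragraph use the scaling of all 60 libraries. Cux2, a transcription factor gene of upper cortical layers, lay at 95.2 to 134 CPM, against at most 38.9 CPM in hippocampus and 38.5 CPM in striatum. Tbr1, a transcription factor gene of deep-layer neurons, lay at 114 to 152 CPM, against at most 57.0 CPM in hippocampus and 98.0 CPM in striatum. The layer markers Rorb (25.1 to 33.1 CPM) and Fezf2 (32.1 to 55.4 CPM) overlapped with other regions, where Rorb reached 27.5 CPM in striatum and Fezf2 reached 44.6 CPM in hippocampus. The striatal dopamine receptor gene Drd1 was at 7.01 to 11.6 CPM, against 187 to 317 CPM in striatum. The dentate gyrus marker C1ql2 was at 0.250 to 1.35 CPM, against 47.8 to 102 CPM in hippocampus. The hippocampal markers Prox1 (8.02 to 11.6 CPM) and Fibcd1 (8.42 to 12.7 CPM) were also lower, against at least 78.0 and 90.4 CPM in hippocampus. A further hippocampal marker, Wfs1, did not separate the regions, at 127 to 160 CPM against 69.4 to 158 CPM in hippocampus. Reads of the Y-linked gene Ddx3y were present in each of the 20 libraries (51.3 to 66.6 CPM). The library labelled WT replicate 5 stood apart at chromosome 5 genes and at Flg, and differences of the called genes without it are given below.

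Adgrl3 lies on the plus strand of chromosome 5 (81020138 to 81825133, GRCm38; ENSMUSG00000037605.16). It lay at 16.0, 37.2 and 42.9 CPM (lowest, median and highest of 10) in KO, and at 123, 147 and 168 CPM in WT. Each KO library was below each WT library. KO replicates 10 and 9 were the lowest, at 16.0 and 24.4 CPM, while the other KO libraries lay between 30.9 and 42.9 CPM. The log2 difference was -2.09 ± 0.13 (SE), with adjusted p = 6.30e-09 by edgeR's quasi-likelihood F test with Benjamini-Hochberg adjustment over all 15376 tested genes. Every adjusted p below comes from this test unless another is named. A two-sided permutation test on log2 CPM gave p = 2e-05 with 100000 resamples. Reads were counted over the whole gene, introns included, so the remaining reads do not show which part of the transcript they came from.

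At an adjusted p under 0.05, 18 of 15376 genes differed between the genotypes (0.117%), 10 of them higher in KO (0.0650%) and 8 lower (0.0520%). Of these, 14 lay on chromosome 5, out of 933 tested there (1.50%), and 4 lay elsewhere, out of 14443 (0.0277%). For each of the 18, the 10 KO values were all above or all below the mean of the WT values. The 18 were selected by the test on these same libraries, so this is largely set by the selection. Leaving out 1 library at a time gave 9 to 68 called genes, the most without KO replicate 7, with 8 to 18 of them on chromosome 5 and 1 to 50 elsewhere. At an unadjusted p under 0.05 there were 1808 genes (11.8%), split into 927 higher (6.03%) and 881 lower (5.73%) in KO. That share was 18.4% on chromosome 5 and 11.3% on the other chromosomes. The KO and WT libraries did not overlap at all for 3 genes of the 15376 (0.0195%). They were Adgrl3, Cox18 and Casp1.

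**Figure D1:**
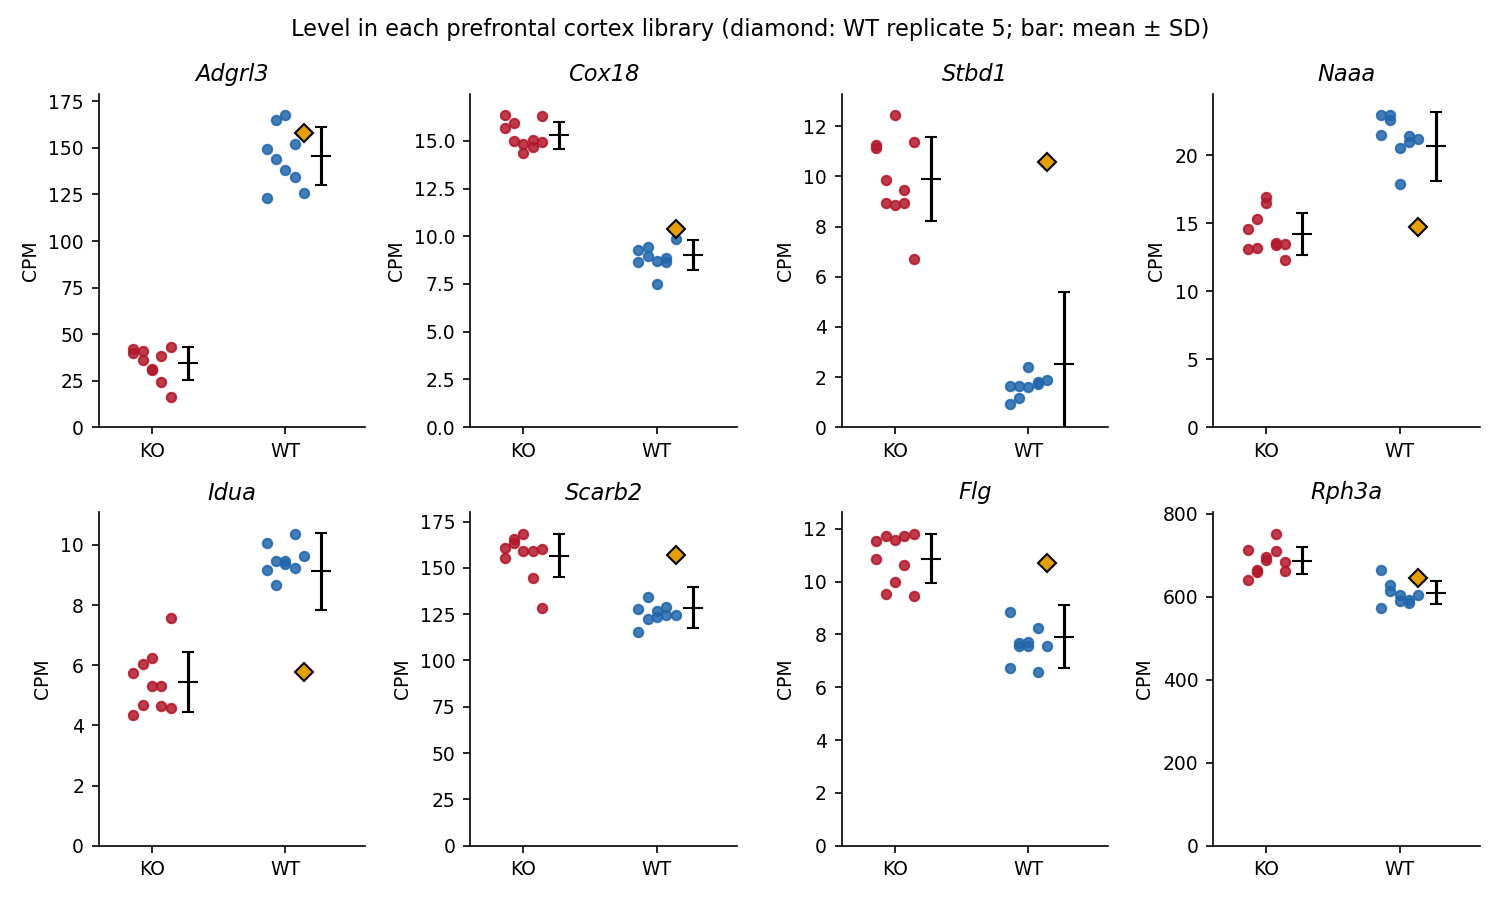
Level in CPM (vertical axis) of 8 genes in each of the 10 KO (red, left) and 10 WT (blue, right) prefrontal cortex libraries, with the mean and SD beside the points and WT replicate 5 as a diamond. Adgrl3 and Cox18 separate the genotypes completely; at Stbd1, Naaa, Idua, Scarb2 and Flg, WT replicate 5 is the WT library on the KO side.

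The largest rise among the called genes was that of Stbd1, a glycogen-binding protein that tethers glycogen to intracellular membranes (chromosome 5, 92603041 to 92606579, plus strand). It lay at 6.71, 9.65 and 12.4 CPM in KO (lowest, median and highest), and at 0.937, 1.69 and 10.6 CPM in WT. The highest WT value was that of WT replicate 5, and the other 9 WT libraries did not exceed 2.38 CPM, below the lowest KO library. The log2 difference was 1.97 ± 0.35 (adjusted p = 0.0220) with all libraries and 2.59 ± 0.14 (9.27e-11) without WT replicate 5. That library was singled out for its KO-like levels at such genes, so the second result is largely set by that choice. Cox18, a mitochondrial protein needed to assemble cytochrome oxidase, had the smallest p of all genes. It lay at 14.3, 15 and 16.3 CPM in KO and at 7.48, 8.92 and 10.4 CPM in WT, so the groups did not overlap. Its log2 difference was 0.76 ± 0.05 (adjusted p = 1.05e-09; chromosome 5, 90214724 to 90224001, minus strand). Of the 19 cytochrome oxidase assembly genes tested, Cox18 was the single member with an unadjusted p under 0.05, and the list's median log2 difference was 0.01.

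The start regions of 3 called genes are shown because these genes differ in chromosome, direction and size of change, 1 with a large rise and 1 with a fall on chromosome 5, and 1 rise elsewhere. Each holds 250 bases before and 50 bases after the RefSeq start, on the gene's strand (GRCm38.p6). Of the 18 called genes, 14 have an entry in the table used, and Cox18, Fras1, Gcn1l1 and Hr do not. Capitals mark the core of a GC box, GGGCGG, searched on both strands, and a TATA box, searched on both strands as TATAAA. Among 32851 start regions of this length, 35.7% hold the GC box core and 13.6% hold the TATA box.
Stbd1, chr5:92602801-92603100: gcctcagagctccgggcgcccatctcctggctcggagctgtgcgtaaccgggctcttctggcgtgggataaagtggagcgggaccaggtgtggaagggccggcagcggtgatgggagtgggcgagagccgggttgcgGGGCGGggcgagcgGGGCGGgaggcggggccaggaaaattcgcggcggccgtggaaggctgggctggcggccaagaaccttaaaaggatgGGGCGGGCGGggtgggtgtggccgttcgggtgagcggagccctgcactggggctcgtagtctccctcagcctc
Idua, chr5:108660081-108660380: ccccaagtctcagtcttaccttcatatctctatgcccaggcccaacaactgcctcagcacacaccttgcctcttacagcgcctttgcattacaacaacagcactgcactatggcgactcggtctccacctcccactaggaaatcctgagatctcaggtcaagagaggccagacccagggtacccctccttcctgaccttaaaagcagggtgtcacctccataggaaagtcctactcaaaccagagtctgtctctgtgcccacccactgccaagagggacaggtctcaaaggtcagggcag
Flg, chr3:93273296-93273595: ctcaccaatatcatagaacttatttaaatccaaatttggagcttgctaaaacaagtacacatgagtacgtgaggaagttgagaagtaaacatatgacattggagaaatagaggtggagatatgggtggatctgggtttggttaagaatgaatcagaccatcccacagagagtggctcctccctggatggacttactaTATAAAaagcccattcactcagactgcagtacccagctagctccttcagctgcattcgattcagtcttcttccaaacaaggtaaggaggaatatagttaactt
The Stbd1 region holds 28 CG pairs and 4 matches to the GC box core, which overlap in part, the Idua region 3 CG pairs and neither motif, and the Flg region 2 CG pairs and 1 TATA box. The median over all start regions was 7 CG pairs. These counts describe the letters of the windows; no binding or methylation was measured.

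Of the called chromosome 5 genes, 3 encode lysosomal proteins, 2 of which fell and 1 of which rose. Lysosomal genes were not tested as a group, and Naaa and Scarb2 lie close together, starting at 92257659 and 92441314. Idua, which degrades heparan and dermatan sulfate, lay at 4.33, 5.32 and 7.58 CPM in KO and at 5.76, 9.41 and 10.4 CPM in WT. The groups overlapped through 1 WT library, WT replicate 5. Its log2 difference was -0.74 ± 0.10 (adjusted p = 7.00e-04). Naaa, which hydrolyses the lipid amide palmitoylethanolamide, lay at 12.3, 13.5 and 16.9 CPM in KO and at 14.7, 21.3 and 22.9 CPM in WT. It too overlapped through WT replicate 5, and its log2 difference was -0.54 ± 0.07 (adjusted p = 7.00e-04). Scarb2, a lysosomal membrane protein that carries glucocerebrosidase to the lysosome, rose by 0.29 ± 0.05 (adjusted p = 0.0135), with medians of 159.7 CPM in KO and 125.8 CPM in WT.

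The remaining chromosome 5 genes changed by less than 0.45 on the log2 scale. Among nuclear and RNA-related genes, Prdm8, a transcription regulator of neurons, rose by 0.39 ± 0.06, with KO libraries at 30.8 to 42.0 CPM and WT libraries at 21.6 to 32.3 CPM. Sdad1, which takes part in ribosome assembly, fell by 0.33 ± 0.05, at 12.1 to 14.6 CPM in KO and 13.1 to 17.8 CPM in WT. Rplp0, a protein of the ribosomal stalk, fell by 0.28 ± 0.06, and the next gene along, Gcn1l1, whose product binds ribosomes and activates the kinase GCN2, rose by 0.29 ± 0.05. Among signalling, vesicle and cytoskeleton genes, the kinase gene Cdkl2 rose by 0.28 ± 0.04 and Rph3a, a synaptic vesicle protein that binds Rab3, rose by 0.17 ± 0.03. Rph3a had the highest level of the 14, with medians of 686 CPM in KO and 604 CPM in WT. Coro1c, a coronin that binds actin, fell by 0.27 ± 0.05. Fras1, an extracellular matrix protein, fell by 0.41 ± 0.08, with KO libraries at 18.8 to 25.4 CPM and WT libraries at 19.1 to 34.9 CPM. Adjusted p ran from 0.00324 for Sdad1 to 0.0497 for Rplp0. In the fits that leave out 1 of the 20 libraries at a time, Adgrl3, Cox18, Naaa, Idua, Sdad1, Cdkl2, Prdm8 and Scarb2 passed in 20 of 20. Stbd1 and Rph3a passed in 12, Gcn1l1 and Coro1c in 7, Rplp0 in 6 and Fras1 in 5.

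The called neighbours of Adgrl3 all lay on the same side of it. None of the 337 genes tested on the side before Adgrl3 passed, and the 13 called neighbours were among the 595 tested after it. Of 44 genes tested 10 to 20 Mb after the end of Adgrl3, 7 passed, and 19 (43.2%) had an unadjusted p under 0.05. The share was 30% (6 of 20) within the 10 Mb after the end of Adgrl3, 21.2% at 20 to 30 Mb, 31.4% at 30 to 40 Mb and 21.9% at 40 to 50 Mb. It was 24.4% (10 of 41) within 10 Mb before Adgrl3. At 10 to 20 Mb and at 20 to 40 Mb before Adgrl3 the share was 13.2% each. At 50 to 60 Mb after the end of Adgrl3 the share was 13.1%. Beyond 40 Mb before Adgrl3 the share was 10%, and beyond 60 Mb after it 9.68%, beside 11.3% for the other chromosomes. Individual libraries share these neighbouring genes, and no test was made of the bands.

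The nearest neighbours did not pass. Before Adgrl3 lie Igfbp7, a secreted protein that binds growth factors, Polr2b, a subunit of RNA polymerase II, and Noa1, a mitochondrial GTPase, with log2 differences of 0.17 ± 0.06, -0.08 ± 0.04 and 0.05 ± 0.04 (adjusted p = 0.205, 0.404 and 0.653). After it lie the ephrin receptor gene Epha5 (-0.01 ± 0.07, adjusted p = 0.982), the centromere protein gene Cenpc1 (-0.23 ± 0.05, 0.0768) and the ubiquitin-activating enzyme gene Uba6 (0.02 ± 0.05, 0.949).

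**Figure D2:**
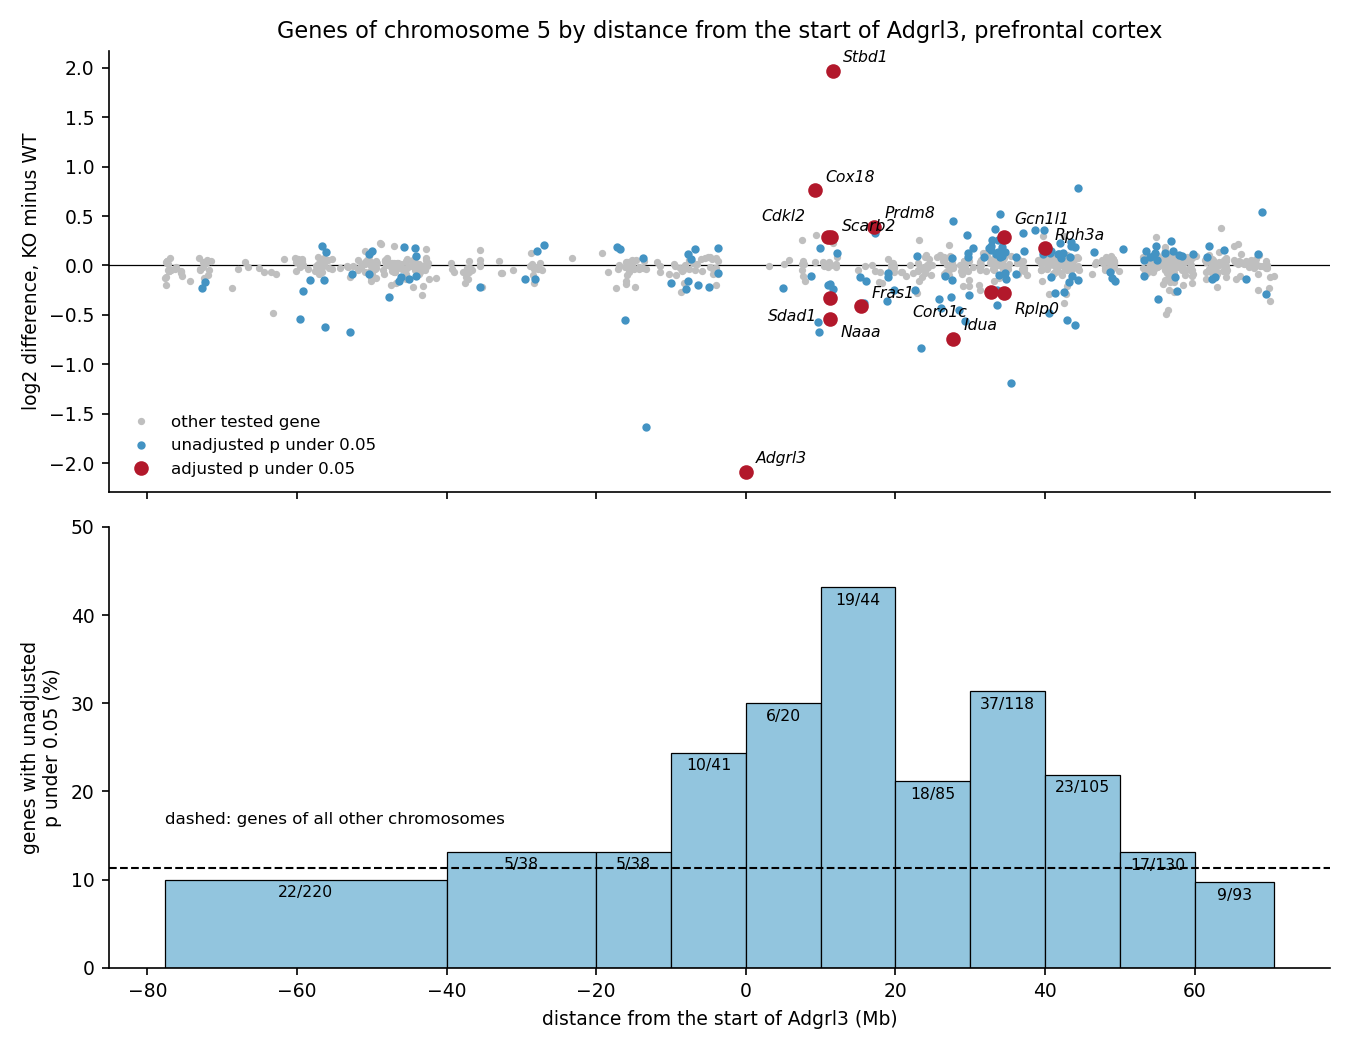
Chromosome 5 genes by distance of their start from the start of Adgrl3 (Mb, horizontal axis); the upper panel gives the log2 difference KO minus WT, with called genes in red, and the lower panel the percentage with an unadjusted p under 0.05 in each band, with counts, beside the 11.3% of the other chromosomes (dashed). The bands after Adgrl3 were counted from its end but are drawn on the axis of distance from its start. The share is highest, at 43.2%, 10 to 20 Mb after Adgrl3.

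The library labelled WT replicate 5 had a WT-like level of Adgrl3, at 158 CPM. At 10 of the 14 called chromosome 5 genes it nevertheless lay nearer to the KO mean than to the mean of the other WT libraries, whereas each of the other 19 libraries lay nearer to the opposite genotype at no more than 3. At 9 of the 13 called genes other than Adgrl3, its level was within the range of the 10 KO libraries and outside that of the other 9 WT libraries. Stbd1, Idua, Naaa, Sdad1, Scarb2 and Gcn1l1 were among them. Cox18 was between the groups, at 10.4 CPM, or 29.5% of the way from the mean of the other WT libraries to the KO mean on the log2 scale. The libraries numbered WT 5 in the other regions behaved alike, with 6 of the 13 genes in hippocampus and 8 in striatum inside the KO range and outside the WT range there. The labels do not say whether equal numbers mark the same animal. Without WT replicate 5, 21 of 15415 genes passed (0.136%), 18 on chromosome 5 and 3 elsewhere.

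The 14 called genes of chromosome 5 all passed without WT replicate 5. The log2 differences were then -0.80 ± 0.08 for Idua, -0.58 ± 0.06 for Naaa, -0.46 ± 0.06 for Fras1, -0.36 ± 0.04 for Sdad1, -0.31 ± 0.04 for Rplp0 and -0.30 ± 0.05 for Coro1c. Among the genes that rose they were 0.34 ± 0.04 for Gcn1l1, 0.32 ± 0.04 for Scarb2 and 0.31 ± 0.04 for Cdkl2. Each of these 9 was farther from 0 than with all libraries. WT replicate 5 was singled out for its KO-like levels at such genes, so this shift is largely set by that choice. Cox18 had 0.78 ± 0.04, Prdm8 0.40 ± 0.07, Rph3a 0.18 ± 0.03 and Adgrl3 -2.07 ± 0.14. Off chromosome 5, Hr had 0.31 ± 0.06 (adjusted p = 0.0260) and Scgn -2.28 ± 0.44 (0.0334).

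Leaving that library out added 4 genes of chromosome 5. They were Hspb8, a small heat shock protein (-1.28 ± 0.23, adjusted p = 0.0227), Crlf2, a cytokine receptor (-0.52 ± 0.09, 0.0110), Anxa3, an annexin (-0.43 ± 0.07, 0.00434), and Ssh1, a phosphatase that activates cofilin (0.33 ± 0.06, 0.0226). With all 20 libraries their adjusted p ranged from 0.0732 for Hspb8 to 0.185 for Ssh1. The library left out was chosen for its KO-like levels at chromosome 5 genes, so these added calls are a description. Tmem151b no longer passed without WT replicate 5 (adjusted p = 0.0694).

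**Figure D3:**
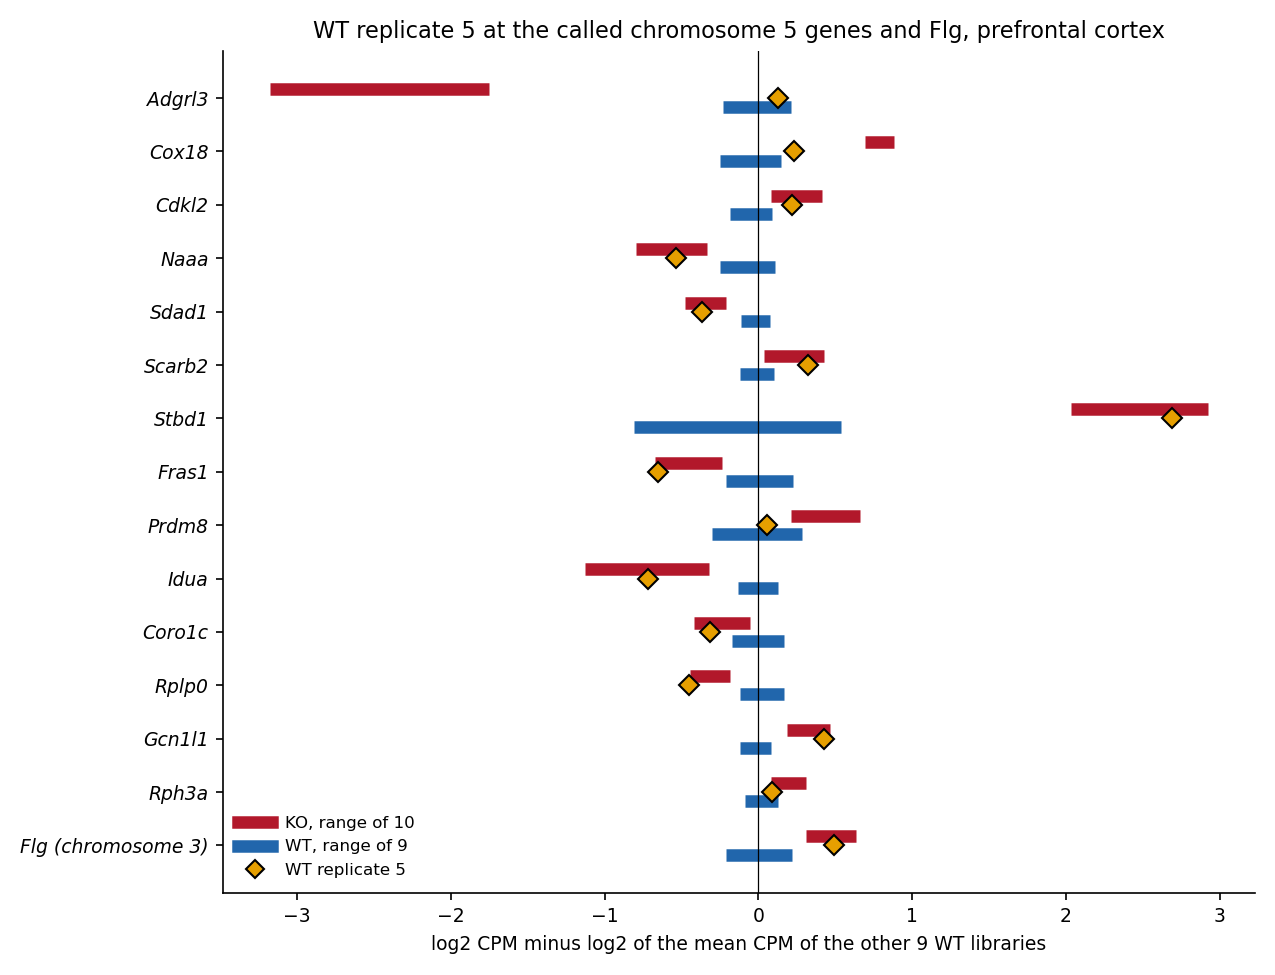
Range of the 10 KO libraries (red, upper bar), range of 9 WT libraries (blue, lower bar) and WT replicate 5 (diamond) for the 14 called chromosome 5 genes in map order and for Flg, as log2 CPM minus the log2 of the mean CPM of the 9 WT libraries. WT replicate 5 sits with the WT libraries at Adgrl3, nearer to the KO than to the WT mean at 10 of the 14 genes, and within the KO range at Flg.

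Of the 4 called genes on other chromosomes, Flg was the single one that passed in each fit that leaves out a library. It passed in 6 of 9 other settings, and Tmem151b in 7 of 9. Flg encodes filaggrin, a keratin-binding protein known from the outer skin (ENSMUSG00000102439.4; chromosome 3, 93273523 to 93293686, plus strand). It lay at 9.46, 11.2 and 11.8 CPM in KO and at 6.58, 7.62 and 10.7 CPM in WT. The overlap came from WT replicate 5 alone, at 10.7 CPM, since the other WT libraries did not exceed 8.85 CPM. The log2 difference was 0.46 ± 0.07 (adjusted p = 0.00504), and 0.52 ± 0.06 (3.94e-05) without WT replicate 5. That library was singled out for KO-like levels, at Flg among others, so the second result is largely set by that choice. In a fit of all 60 libraries the Flg difference was 0.27 ± 0.08 in hippocampus and 0.35 ± 0.08 in striatum (adjusted p = 0.284 and 0.0338). The prefrontal difference did not pass against the mean of those 2 regions (0.15 ± 0.10, adjusted p = 0.9999). In that scaling WT replicate 5 was inside the KO range and above the other WT libraries in each of the 3 regions.

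Of 19 epidermal differentiation genes, 7 passed the filter on low counts, and 2 of the 7, Flg and Hr, passed the test as higher in KO, beside 0.0650% of all genes. The list was put together with both results known, so its count is a description. Hr, a corepressor of nuclear receptors named for its hairless mutant and also active in brain, passed with 0.29 ± 0.06 (adjusted p = 0.0497; chromosome 14), at 29.0 to 39.8 CPM in KO and 22.7 to 32.1 CPM in WT. Tchh, the hair follicle protein trichohyalin, had a difference of -0.15 ± 0.07 (adjusted p = 0.416). The transmembrane protein gene Tmem151b (chromosome 17) passed with 0.30 ± 0.06 (adjusted p = 0.0411), at 158 to 222 CPM in KO and 139 to 175 CPM in WT. Scgn, the calcium-binding protein secretagogin (chromosome 13), passed with -2.20 ± 0.44 (adjusted p = 0.0497). Hr, Tmem151b and Scgn each passed in 5 of the 20 fits that leave out a library.

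Casp1, the caspase that processes interleukin-1, was named after its values were seen, as the single gene off chromosome 5 whose groups did not overlap (1 of 14443, 0.00692%). It lay at 1.32, 1.53 and 1.80 CPM in KO and at 1.83, 1.93 and 3.23 CPM in WT. Its log2 difference was -0.43 ± 0.10, and its adjusted p was 0.0892.

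The 4 olfactory bulb genes had lower medians in KO, with a wide spread in both genotypes. Eomes, a transcription factor of mitral and tufted cells, lay at 0.0232, 0.233 and 4.78 CPM in KO and at 0.224, 4.62 and 9.49 CPM in WT. Tbx21, another transcription factor of these cells, lay at 0.118, 0.241 and 1.23 CPM in KO and at 0.125, 1.25 and 2.35 CPM in WT. Cdhr1, a cadherin-related protein, lay at 2.65, 4.12 and 30.2 CPM in KO and at 3.34, 26 and 54.7 CPM in WT. Doc2g, a C2-domain protein, lay at 1.12, 2.33 and 13.4 CPM in KO and at 1.67, 14.5 and 29.8 CPM in WT. The groups overlapped for all 4 genes, and KO replicate 7 was the highest KO library for each. Their log2 differences were -2.28 ± 0.70, -1.72 ± 0.44, -1.68 ± 0.51 and -1.86 ± 0.52 for Eomes, Tbx21, Cdhr1 and Doc2g, and none passed (adjusted p = 0.179, 0.11, 0.178 and 0.143). Doc2g overlaps Nudt8 on the same strand, and the 2 genes share reads.

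The olfactory bulb score, the mean log2 CPM of these 4 genes, was 0.22 ± 1.32 in KO and 2.35 ± 1.35 in WT (SD, n = 10 each), a difference of -2.13. It ran from -1.06 to 2.82 in KO, with a median of -0.23, and from -0.48 to 3.80 in WT, with a median of 2.81. Of the WT libraries, 5 were above the highest KO library, and of the KO libraries, 5 were below the lowest WT library. WT replicates 7 and 4 had the lowest WT scores, at -0.48 and 0.41, and KO replicate 7 the highest KO score. In hippocampus the score was 0.24 ± 0.16 in KO and 0.22 ± 0.27 in WT, and in striatum -0.42 ± 0.51 in KO and -0.45 ± 0.37 in WT (60-library scaling). The score was given no test.

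Th and Scgn, which olfactory bulb interneurons express, correlated with the score within each genotype. Th, tyrosine hydroxylase, which makes the precursor of dopamine, had r = 0.95 in KO and 0.95 in WT (Spearman's coefficient 0.90 and 0.84; n = 10 each; permutation p = 1.50e-04 and 4.70e-04 for r and 7.20e-04 and 0.00346 for Spearman's coefficient). For Scgn r was 0.93 in KO and 0.96 in WT (Spearman's coefficient 0.88 and 0.92; permutation p = 1.50e-04 and 5.00e-05 for r and 0.00164 and 5.40e-04 for Spearman's coefficient). Over the 10 relations computed, the adjusted p for r was 5.00e-04, 0.00117, 5.00e-04 and 5.00e-04 in that order. Without the 2 libraries farthest from the median score, r was 0.87 and 0.64 for Th and 0.84 and 0.90 for Scgn, in KO and WT. Flg, Tmem151b and Hr had r between -0.18 and 0.14 in either genotype, with adjusted permutation p = 0.954 for all 6. Without the 2 farthest libraries, r for Flg was 0.21 in KO and -0.72 in WT.

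**Figure D4:**
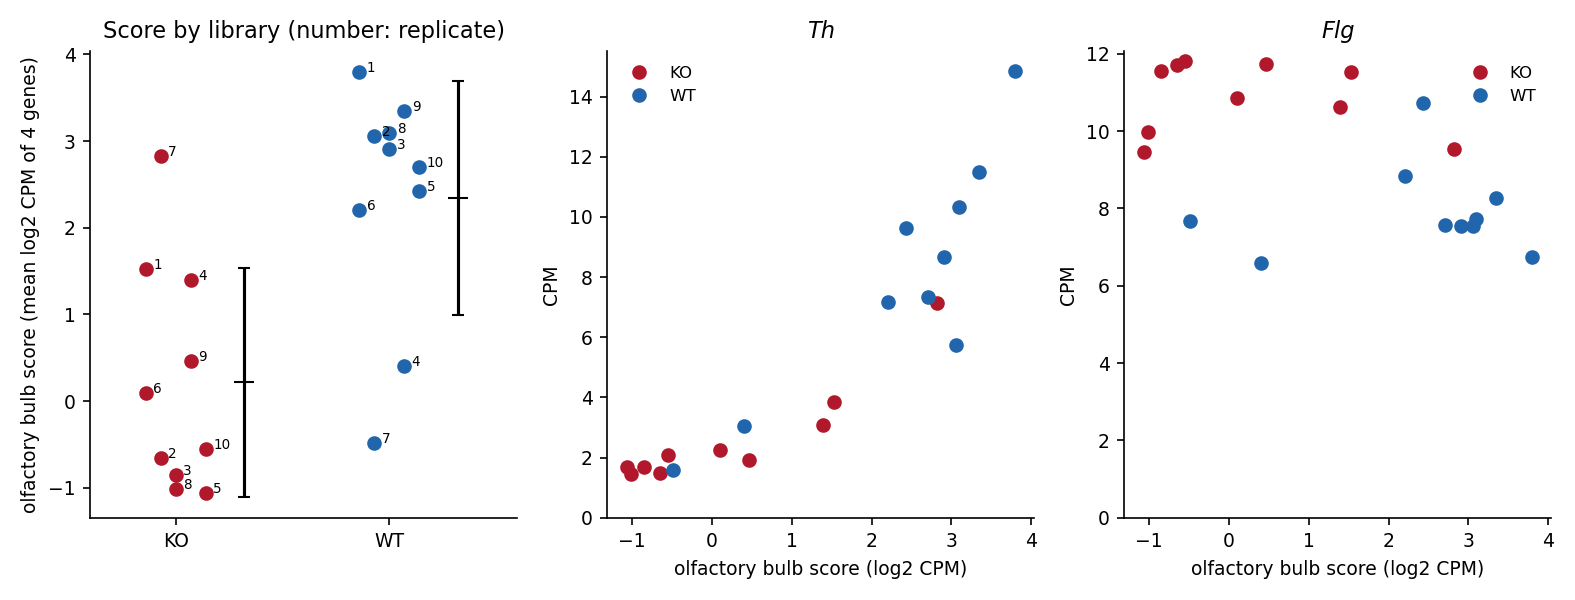
Left, olfactory bulb score (mean log2 CPM of the 4 genes) of each KO (red, left) and WT (blue, right) library, with replicate numbers, mean and SD. Middle and right, CPM of Th and of Flg against the score; Th lies along 1 rising course in both genotypes, while Flg separates by genotype at all scores except for WT replicate 5.

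With the score as a covariate, 6 of 15376 genes passed (0.0390%), and 791 (5.14%) had an unadjusted p under 0.05. The score itself was lower in KO, so this fit can tell genotype and score apart only in part. A call lost in it does not by itself mean a smaller difference. On chromosome 5, Adgrl3 (-1.99 ± 0.16), Cox18 (0.77 ± 0.06), Idua (-0.75 ± 0.13), Naaa (-0.60 ± 0.09) and Sdad1 (-0.37 ± 0.06) passed, each close to its value without the score. The sixth was Pcdhb5, a clustered protocadherin, at 0.91 ± 0.16 (adjusted p = 0.0399), against 0.33 ± 0.22 (0.613) without the score. Pcdhb5 had a median count of 315 and overlaps Gm42416, Gm37013 and Gm37388 on the same strand, at 37103, 33279 and 33123. Genes that overlap in this way share reads. Flg had a difference of 0.45 ± 0.10 with the score, close to that without it, at adjusted p = 0.166. Stbd1 kept its size at 2.01 ± 0.46 (adjusted p = 0.283). Scgn moved to -0.57 ± 0.22 (adjusted p = 0.934) and Th to -0.30 ± 0.16, from -1.58 ± 0.36 without the score.

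**Figure D5:**
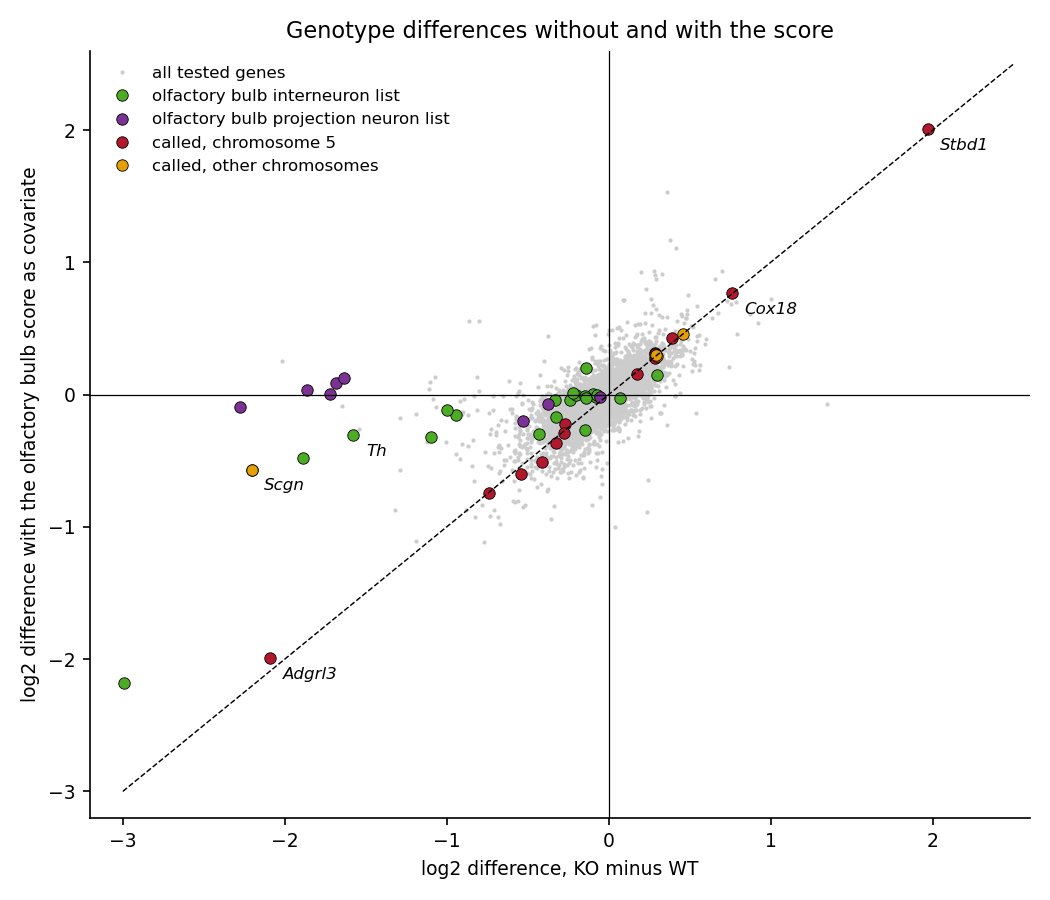
Log2 difference KO minus WT of each tested gene without (horizontal axis) and with (vertical axis) the olfactory bulb score as covariate; the dashed line marks equal values, and 1 gene lies outside the axes. Called chromosome 5 genes lie close to the line, while Scgn and Th move towards 0, as do the projection neuron genes, of which 4 make up the score.

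The difference between genotypes was itself compared between regions, as the prefrontal difference minus the mean of the hippocampal and striatal ones. At an adjusted p under 0.05, 15 of 16121 genes passed (0.0930%), and for each of the 15 the prefrontal difference was the more negative. Scgn, Nmb, Slc6a3, Nudt8 and Th had the smallest p. Scgn had a difference between regions of -2.32 ± 0.40 (adjusted p = 0.00456), with 0.268 ± 0.225 CPM in KO and 1.26 ± 0.753 CPM in WT prefrontal cortex (SD, n = 10 each). Th had -1.55 ± 0.31 (0.0168), with 2.73 ± 1.78 CPM in KO and 8.18 ± 4.02 CPM in WT. The peptide genes Trh (thyrotropin-releasing hormone), Nmb (neuromedin B) and Nppa (atrial natriuretic peptide) had -2.45 ± 0.50, -1.16 ± 0.22 and -2.82 ± 0.62 (adjusted p = 0.0168, 0.0121 and 0.0436). Doc2g and Nudt8, which share reads, had -1.92 ± 0.41 and -0.99 ± 0.19 (0.0312 and 0.0121).

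The dopamine transporter gene Slc6a3 had the largest difference between regions, -3.31 ± 0.63 (adjusted p = 0.0121), but WT replicate 5 stood at 8.75 CPM and the other 9 WT prefrontal libraries at 0.0997 to 1.08 CPM. Without the WT 5 libraries it was -1.94 ± 0.46 (adjusted p = 0.0960). On chromosome 5, Tlr1, a receptor for bacterial lipopeptides, had -0.90 ± 0.18 (0.0168) and Fras1 -0.50 ± 0.11 (0.0282), and Fras1 differed by 0.17 ± 0.09 in hippocampus and 0.03 ± 0.09 in striatum. Of the 15 genes, 9 passed without the WT 5 libraries, and Doc2g (0.0520), Nppa (0.0668) and Slc6a3 were among those that did not. With the genotype and replicate number as a random block (limma voom), 10 genes passed, 8 of them among the 15, and Th (adjusted p = 0.0979), Doc2g (0.190) and Slc6a3 (0.131) did not pass. Scgn and Fras1 were the called prefrontal genes among the 15. For Adgrl3, Cox18 and Stbd1 the differences between regions were -0.18 ± 0.11, 0.06 ± 0.07 and 0.17 ± 0.37 (adjusted p = 0.9999 each).

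Gene lists of cell types and pathways were read by counts at an unadjusted p under 0.05, beside 6.03% higher and 5.73% lower among all genes and a median log2 difference of -0.00. Their members were chosen with earlier results of these data known. Of 8 measured olfactory bulb projection neuron genes, 0 were higher and 7 lower in KO (median -1.66), and with the score as covariate the median was -0.01. The score is made from 4 of these 8 genes, so the second value is largely set by construction. The summed level of that list was 19.6 to 71.4 CPM in KO and 21.1 to 121 CPM in WT. Of 22 bulb interneuron and newborn neuron genes, 1 was higher and 14 lower (median -0.23). They included the calcium-binding protein gene Calb2, at -0.95 ± 0.22 (adjusted p = 0.0942) and -0.16 with the score, and Trh, at -1.89 ± 0.38 (0.0560).

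Of 18 cortical excitatory neuron genes, 17 had positive differences, with 10 higher and 0 lower at this threshold (median 0.13), and 0 passed over all genes. Nrgn, a calmodulin-binding protein of dendrites, lay at 1100, 1253 and 1484 CPM in KO (lowest, median and highest) and at 951, 1052 and 1299 CPM in WT (0.22 ± 0.06, adjusted p = 0.123). With the score as covariate the list's median was 0.10. The lists of cortical layers lay nearer to the shares of all genes, with 3 higher and 2 lower of 20 upper-layer genes (median 0.04) and 1 higher and 2 lower of 25 deep-layer genes (median 0.02). Cux2 itself lay at 94.9, 105.6 and 121 CPM in KO and at 93.0, 116 and 132 CPM in WT (-0.12 ± 0.05, adjusted p = 0.393). Cux2 is on chromosome 5. Of 25 cortical interneuron genes, 3 were higher and 4 lower. Among them the neuropeptide gene Npy had 0.26 ± 0.07 (adjusted p = 0.121) and the GABA-synthesizing enzyme gene Gad1 -0.18 ± 0.05 (0.106). With the score as covariate Gad1 had -0.05.

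All 20 oligodendrocyte genes had positive differences, 11 of them at an unadjusted p under 0.05 (median 0.19). Fa2h, which hydroxylates myelin lipids, had 0.36 ± 0.10 (adjusted p = 0.133), and Cnp, a myelin enzyme, 0.20 ± 0.07 (0.220). The list's summed level was 1600 to 2730 CPM in KO and 1438 to 1898 CPM in WT, its median with the score was 0.08, and its median difference was -0.14 in hippocampus and 0.13 in striatum. Of 7 erythrocyte genes, 0 were higher and 5 lower (median -0.58, beside -0.56 in hippocampus and -0.30 in striatum). The summed level of these was 331 to 647 CPM in KO and 423 to 914 CPM in WT. The haem synthesis gene Alas2 had -0.71 ± 0.17 (adjusted p = 0.0964) and the globin gene Hbb-bs -0.58 ± 0.15 (0.113). Of 21 genes of meninges and mural cells, 0 were higher and 3 lower (median -0.25). Of 18 astrocyte genes, 4 were higher and 1 lower (median 0.01), and of 19 microglial genes, 4 were higher and 1 lower (median 0.03). Within the astrocyte list, Dio2, which activates thyroid hormone, had 0.40 ± 0.10 (adjusted p = 0.0942) and Gfap, the astrocyte intermediate filament, -0.36 ± 0.15 (0.351). The part of tissue makeup in the genotype differences was not tested.

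None of 17 genes of other latrophilins and of partner proteins passed over all genes. At an unadjusted p under 0.05, 3 were higher and 0 lower (median 0.02). They were the presynaptic adhesion gene Nrxn2 (0.12 ± 0.04, adjusted p = 0.196), the netrin receptor gene Unc5a (0.15 ± 0.05, 0.220) and the latrophilin ligand gene Flrt1 (0.14 ± 0.06, 0.349). Adgrl1, the paralogue latrophilin-1, lay at 668, 776 and 823 CPM in KO and at 657, 732 and 776 CPM in WT (0.08 ± 0.04, adjusted p = 0.435). Of 19 serotonin and noradrenaline receptor genes, 4 were higher and 3 lower. The adrenergic receptor gene Adra1b had 0.15 ± 0.04 (adjusted p = 0.107) and the serotonin receptor gene Htr1a -0.24 ± 0.08 (0.180). Of 16 genes of dopamine synthesis, transport and reception, 1 was higher and 3 lower (median 0.01), and Th and Slc6a3 were among the lower ones. As given above, Th correlated with the olfactory bulb score, and Slc6a3 stood far higher in WT replicate 5 than in the other WT libraries. Glutamate receptor genes (22, median -0.03) had 2 higher and 0 lower, and GABA-A receptor subunits (12, median -0.05) 1 higher and 2 lower. Of 27 heat shock and endoplasmic reticulum chaperone genes, 7 were higher and 1 lower (median 0.09, beside 0.09 in both hippocampus and striatum).

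DESeq2 on the same libraries called 214 of 15376 genes (1.39%), the 18 included, with 173 off chromosome 5. The 10 genes of smallest p among those that DESeq2 alone called off chromosome 5 fell into a group lower in KO and a group higher in KO. Lower were Trh, Slc6a3, Th, the TALE homeobox gene Pbx3 and Cbln1, a secreted synapse organizer, and with the score as covariate Pbx3 went to -0.17 ± 0.09, from -0.57 ± 0.12, and Cbln1 to -0.16 ± 0.09, from -0.42 ± 0.09. Higher were the POU factor gene Pou3f3, the endocannabinoid-producing lipase gene Dagla, the thyroid hormone transporter gene Slco1c1, Arhgap23, a GTPase-activating protein, and Sema7a, a membrane semaphorin. Dagla lay at 134 to 167 CPM in KO and 121 to 143 CPM in WT (0.19 ± 0.04, edgeR adjusted p = 0.0520, DESeq2 adjusted p = 0.00228), and its difference with the score was 0.19 ± 0.05. The log2 differences of Pou3f3, Slco1c1, Arhgap23 and Sema7a were 0.17, 0.23, 0.16 and 0.18 without the score and 0.14, 0.19, 0.15 and 0.12 with it.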

How the data were processed

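The authors deposited unnormalized counts of reads per gene. Of 21950 protein-coding genes, 15376 passed edgeR's filterByExpr filter in the 20 libraries. The submitters' processing notes name the build GRCm38 and the tools STAR 2.5.2b, cutadapt 1.16, DESeq2 1.16.1, FastQC 0.11.4 and bedtools, with no role or order given. Per the file headers, features span genes with their introns, whose reads count too. Whether counting used strand was not given in the sources used here. Of 486 nested gene pairs on equal strands, the outer gene had the smaller count in 0, and of 218 on opposite strands in 85. Genes that overlap on the same strand therefore share reads.

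KO and WT were compared with edgeR 4.0.16 (quasi-likelihood F test, TMM scaling, robust dispersions) in R 4.3.3 at a Benjamini-Hochberg threshold of 0.05, on the 20 libraries with genotype as the sole term. The procedure was tested on simulated data. Differences between regions were tested as a contrast over 60 libraries. The olfactory bulb score is the mean log2 CPM (prior count 2) of its genes. Alternatives were DESeq2 1.42.0, surrogate variables (sva 3.50.0), voom with quality weights (limma 3.58.1), RLE size factors, other filters, all 60 libraries in a single fit, the score as covariate, the replicate number as a block, and leaving out each library; the comparison of regions without WT replicate 5 was added after seeing the data. Replicate pairs within a group differed by a chi-square of 5.58 to 93.1 per degree of freedom over genes averaging at least 20 counts, so no library was entered more than once.

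The members and gene lists were chosen with earlier results of these data known. The text names Adgrl3, Cox18, Flg and Cux2, the olfactory bulb genes, all genes that passed, 3 tested genes on either side of Adgrl3, up to 4 members of smallest p per list, the 10 genes of smallest p between regions, the 10 of smallest DESeq2 p that DESeq2 alone called off chromosome 5, and the genes that passed with the score. Casp1 and the genes added by leaving out WT replicate 5 were chosen after their values were seen. Some single-gene values are not reported here.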

Additional observations from a re-analysis of the deposited data

Results flagged for a closer look

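Within each genotype, a library was singled out where its gap to the nearest other library exceeded the 95% critical value of Dixon's test. This was so for 30 of 132 groups, from 66 genes, where chance gives about 1 in 20. The genes were not chosen blindly: Anxa3, Crlf2, Ssh1 and Hspb8 were named because leaving out WT replicate 5 changed their call, and Casp1 after its values were seen, so the count is a description. The libraries are not independent between genes, and 22 of the 30 fall on WT replicate 5 and KO replicate 7.

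WT replicate 5 stood apart from the other WT libraries at 12 genes, 11 of them on chromosome 5. It was higher at Stbd1 (10.6 CPM, the others at most 2.38), Ssh1 (35.5 CPM, the others at most 25.9), Gcn1l1 (98.5 CPM, at most 77.5), Scarb2 (157 CPM, at most 134) and Polr2b (78.6 CPM, at most 71.7). It was lower at Idua (5.76 CPM, the others at least 8.65), Crlf2 (5.97 CPM, at least 10.1), Hspb8 (4.82 CPM, at least 9.46), Anxa3 (5.88 CPM, at least 8.03), Sdad1 (13.1 CPM, at least 15.6) and Rplp0 (111.5 CPM, at least 140.2). On chromosome 13 it was high at Slc6a3 (8.75 CPM, the others at most 1.08).

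KO replicate 7 stood above the other KO libraries at 10 genes, 8 of them from the olfactory bulb lists. Of the others, Nudt8 shares reads with the list member Doc2g. They were Eomes (4.78 CPM, the others at most 1.90), Tbx21 (1.23 CPM, at most 0.550), Cdhr1 (30.2 CPM, at most 11.2), Doc2g (13.4 CPM, at most 6.04), Nudt8 (11.8 CPM, at most 7.28), Th (7.13 CPM, at most 3.85), Trh (3.19 CPM, at most 1.69), Scgn (0.784 CPM, at most 0.402), Calb2 (25.4 CPM, at most 16.7) and Nmb (2.00 CPM, at most 1.19). Its olfactory bulb score, 2.82, was the highest of the KO libraries.

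The others were scattered over libraries. KO replicate 10 was high at Igfbp7 (22.5 CPM) and low at Cdkl2 (36.7 CPM), KO replicate 6 low at Anxa3 (4.97 CPM) and KO replicate 8 high at Coro1c (82.2 CPM). WT replicate 6 was high at Npy (77.7 CPM) and low at Flrt1 (28.1 CPM), and WT replicate 8 was high at Casp1 (3.23 CPM) and low at Adra1b (30.6 CPM).

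For 15 genes the KO minus WT difference in prefrontal cortex itself differed from the mean of that in hippocampus and striatum (edgeR, adjusted p under 0.05). On the log2 scale the differences between regions of the 10 with the smallest p were -3.31 for Slc6a3, -2.82 for Nppa, -2.45 for Trh, -2.32 for Scgn, -1.92 for Doc2g, -1.55 for Th, -1.16 for Nmb, -0.99 for Nudt8, -0.90 for Tlr1 and -0.50 for Fras1. The part of olfactory bulb tissue in them was not tested.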

How the results depend on the processing

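Counts of called genes depended on the setting. Against 18 genes (4 off and 14 on chromosome 5), DESeq2 called 214 (173 and 41), voom with quality weights 55 (30 and 25), all 60 libraries in a single fit 208 (166 and 42), 5 surrogate variables 4 (0 and 4, with 881 genes at an unadjusted p under 0.05), and the olfactory bulb score as covariate 6 (1 and 5). The replicate block gave 10 (2 and 8), 8 of them among the 18; same-numbered libraries of the genotypes had correlated deviations over 0.1 for 2 of 10 numbers (r from -0.25 to 0.38), and 1 library of the 10 correlated best with its own number. A filter of 1 CPM in 10 libraries left 2 off chromosome 5. RLE size factors and no filter gave 18 and 16. Leaving out 1 library gave 9 to 68 genes, 1 to 50 off and 8 to 18 on chromosome 5; there were 68 without KO replicate 7, 51 without KO 1, 40 without KO 5 or WT 7, 11 without KO 4 or KO 10, 10 without KO 6 or WT 8, and 9 without KO 3, KO 9, WT 1, WT 3, WT 9 or WT 10. The cause was not tested.

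Adgrl3 passed in each setting, from -2.13 to -1.99, and from -2.13 to -2.01 with a library left out. Between regions 15 genes passed, 2 against hippocampus alone, 4 against striatum alone and 9 without the WT 5 libraries. The score difference was -2.13, from -2.45 to -1.97 with a library left out, and -0.58 with the other olfactory bulb genes of the lists in its place.

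Signs turned for Epha5 and Uba6, which lay near 0, and for Tbx21, Cdhr1 and Doc2g with the score as covariate. Epha5 was 0.00139 with voom, 0.0474 with surrogate variables and 0.0629 with the score, and -0.0388 to 0.0354 with a library left out. Uba6 was -0.0398 with surrogate variables and -0.00526 to 0.0390 with a library left out. With the score as covariate, which is made from them, Tbx21 was 0.00326, Cdhr1 0.0844 and Doc2g 0.0368. Of the single-gene values for the 65 named genes other than Adgrl3, 1591 kept direction and call, 160 lost the call, 113 gained it and 17 turned sign.

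Library totals ran from 39927732 to 51387833 counted reads. Below about 1 CPM, as for Scgn, Eomes and Tbx21 in most KO libraries, counts are small. The KO side of such a difference rests on few reads per library.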

Other observations

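Lists of neighbouring tissues that the dissection could have included were read beside the 6.03% higher and 5.73% lower among all genes. Of 21 striatal genes, 2 were higher and 1 lower at an unadjusted p under 0.05 (median log2 difference 0.02), and of 18 hippocampal genes, 1 was higher and 2 lower (median -0.06). Of 11 genes of hypothalamus, septum and preoptic area, 1 was higher and 4 lower (median -0.15, and -0.06 with the score as covariate). Of 11 genes of claustrum and endopiriform nucleus, 1 was higher and 2 lower. Choroid plexus genes, with medians of -0.61 in hippocampus and -0.17 in striatum, had a median of -0.06 in prefrontal cortex, with 0 of 10 higher and 2 lower. Immediate early genes had 17 of 20 positive differences (median 0.19), with a summed level of 1626 to 3757 CPM in KO and 874 to 3266 CPM in WT, and 1 had an unadjusted p under 0.05.

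Outside chromosome 5, the share of genes with an unadjusted p under 0.05 ran from 7.71% on chromosome X to 13.2% on chromosome 15 among the chromosomes with at least 100 tested genes, against 18.4% on chromosome 5.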
